A study of Homo sapiens with 4 samples.

Results

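Mitochondria make only a handful of their own proteins, so nearly all of their proteome is made on cytosolic ribosomes and imported. The TOM complex forms the entry gate in the outer membrane. Behind it, the small TIM chaperones escort hydrophobic precursors across the intermembrane space, the TIM22 complex inserts carrier proteins into the inner membrane, and the TIM23 complex with its motor pulls precursors that carry a presequence into the matrix. The presequence is then cut off by the matrix processing peptidase, and chaperones and AAA+ proteases fold the imported proteins or remove those that do not fold.

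The ribosome profiling data of HEK293T cells, an established human embryonic kidney line, were examined for the genes of this machinery, with and without the aminoglycoside G418. Aminoglycosides bind the decoding centre of the ribosome and lower the accuracy with which codons, stop codons included, are read. There were 4 libraries, untreated A and B and G418 A and B, the latter from cells given 500 ug/mL of the drug for 24 hr, and no genotype or other agent differed between them. The genes were chosen by name: those starting with TIMM or TOMM and a number, and 16 further symbols for prohibitins, matrix chaperones, proteases, presequence peptidase subunits and motor proteins. Of the 8568 transcripts listed for all 4 libraries, 33 met this rule, 8 with a TOMM name, 13 with a TIMM name and 12 others. HSPD1, HSPE1, PHB2 and PAM16, named in the rule, and TOMM40 and TIMM22 were not analysed here.

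Reads on mRNAs numbered 6082600 and 2440204 in untreated A and B and 5677910 and 4763858 in G418 A and B, so untreated B was the shallowest library. VIM, KRT18, NEFM and NEFL, genes known from this line, were read in every library, and PTPRC, ALB, PECAM1, DES and GFAP, markers of other cell types, were listed in none, while COL1A1 had 3.59 to 5.54 RPKM. Ribosome protected fragments (RPFs) on a coding sequence (CDS) count mRNA abundance and translation together, and these cannot be told apart in these libraries. With 2 libraries per condition, an exact permutation test of a single value cannot give a two-sided p below 0.333, so p-values come from models fitted across all transcripts.

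Readthrough was measured as the ribosome readthrough score (RRTS), the RPF density between the normal termination codon (NTC) and the first in-frame termination codon of the 3′UTR (3′TC), relative to the density on the CDS. The stop codon and the base after it are known to affect how often a stop codon is misread. The contexts of the tested genes with the highest and the lowest RRTS in G418 are therefore shown, read from hg38 with GENCODE version 44, as 15 nt before the stop codon to 12 nt after it. Capitals mark the stop codon and the base that follows.

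TIMM9: cuuggccaaccacgaUAGAgaaguccugau
TIMM10B: ucuccaucaggcagcUAGCcauacccaacc
LONP1: cuggccguggaacggUGACggccaccccgg
TOMM20: gaagaugauguggaaUGAGaaacaaauguc
TIMM10: agcucugggccugcaUGAGgucccugucag
TOMM7: gugcucuggcucggaUAAGagaugggacau
TIMM8B: cagaaaggagggcagUAGGccaucccccag
TOMM5: acaggacaucacauaUGAAugcacgauaug

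The first 3 belong to the high end and the next 4 to the low end. TIMM8A, second from the top, is named only. TOMM5 was added after its values were seen, because its RRTS hardly differed between conditions. The stop codons lie at chr14:58409034-58409036 on the minus strand for TIMM9, chr11:6482219-6482221 on the plus strand for TIMM10B, and chr19:5692032-5692034 on the minus strand for LONP1. Those of the low end lie at chr1:235112064-235112066 (TOMM20), chr11:57528717-57528719 (TIMM10), chr7:22813097-22813099 (TOMM7) and chr11:112085295-112085297 (TIMM8B), and that of TOMM5 at chr9:37588878-37588880, all on the minus strand. All 8 stop codons are in the last exon of the listed transcript. Both ends hold UAG and UGA codons, the low end also a UAA. The base after the stop codon was a G in 4 of 4 contexts of the low end and in none of the 3 of the high end. These contexts were picked by RRTS, and an effect of this base was not tested. UGAG, UAGG and UAAG ended 1236, 399 and 458 of the 6509 transcripts used for RRTS. The other tested members with this G, TIMM17A, TIMM17B, TIMM44, PHB and CLPP, had mean RRTS in G418 from 0.157 to 0.331. The listed stop codon of TOMM7 is not that of its reference transcript.

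Over all members, UGA ended 17 coding sequences, UAG 10 and UAA 6. UGA made up 51.5% of members and 49.8% of the 6509 transcripts with enough mRNA reads in each condition for RRTS to be used, UAG 30.3% and 21.7%, and UAA 18.2% and 28.5%. The distance from the NTC to the end of the first in-frame 3′TC had a median of 57 nt in members, from 18 to 381 nt, and of 69 nt over all transcripts.

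Most import and quality control genes had a high CDS density relative to other transcripts. CDS density ran from 8.63 RPKM for TOMM40L, a paralog of the channel protein TOMM40, to 791 RPKM for TOMM6. The median member ranked at percentile 87.5 of all transcripts, and TOMM40L and SPG7 at 37.2 and 40.4. Densities are relative to each library. A change in total protein synthesis, which the paper reports aminoglycosides to inhibit, would therefore not show in them. In G418, CDS reads rose past the threshold in 0 of 33 members and fell in 1, TIMM10B. Over all 8494 transcripts tested, 5.31% were higher and 3.21% lower, 8.52% in either direction (edgeR quasi-likelihood test, Benjamini-Hochberg adjusted p under 0.05). Without the adjustment, 2 members were higher and 6 lower at p under 0.05, where 12.7% and 10.1% of all transcripts were, and DESeq2 called 0 members higher and 0 lower. The counts rested on which libraries entered the fit, over all transcripts as well as in members. Without untreated A the median log2 fold change was -0.125 in members and 0.007 over all transcripts, and without untreated B -0.089 and 0.007. Without G418 A these medians were -0.101 and -0.003, and without G418 B -0.069 and 0.002.

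**Figure D1:**
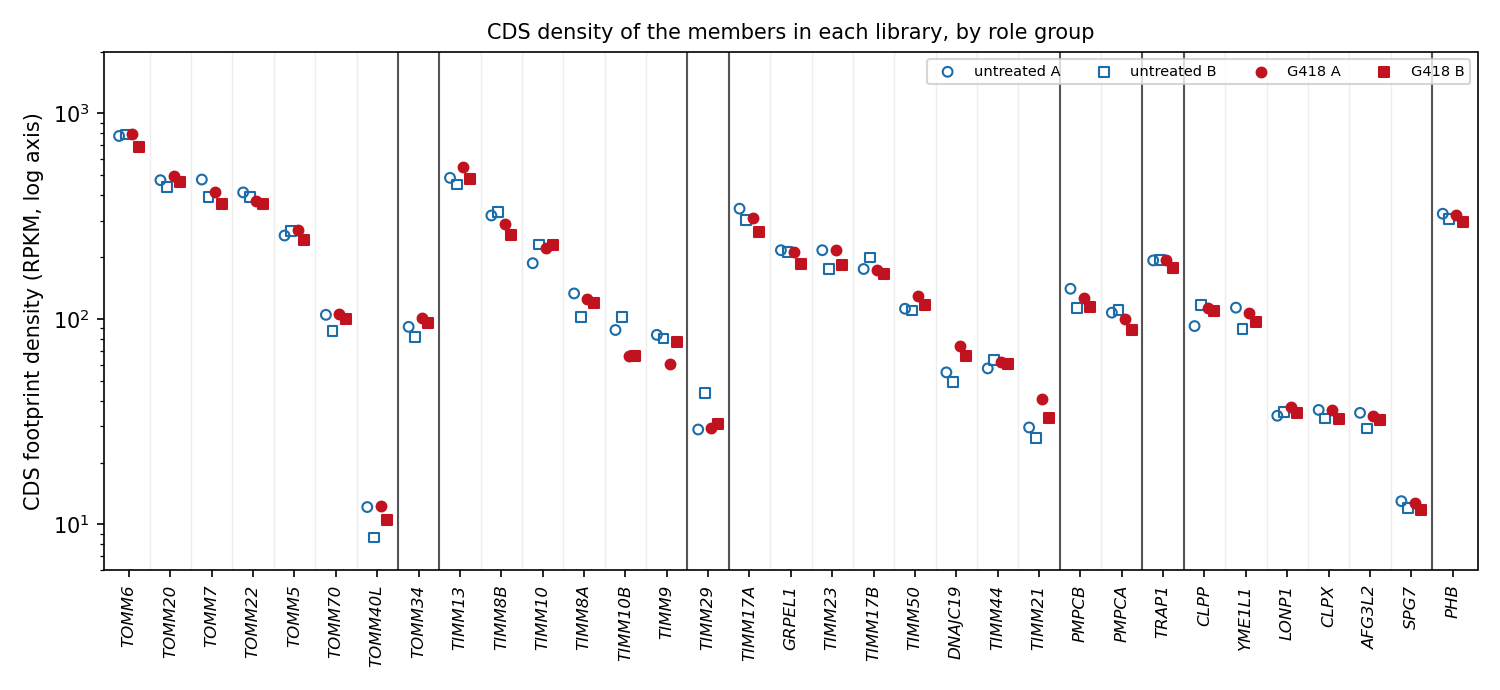
CDS footprint density in RPKM on a log axis for each of the 33 members, 1 point per library, with open blue symbols for untreated and filled red symbols for G418 libraries, circles for replicate A and squares for replicate B, and vertical dark lines between role groups. Densities run from 8.63 RPKM for TOMM40L to 791 RPKM for TOMM6, and for most members the points of both conditions lie close together; TIMM10B sits lower in both G418 libraries.

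TIMM10B is a small TIM protein that holds the chaperone complex at the TIM22 translocase. It had 220 and 111 CDS reads in untreated A and B and 154 and 141 in G418 A and B. The deposited CDS counts, 153 and 140 in G418 A and B, were the ones scaled. After TMM scaling they were 39.6 and 49.9 CPM (counts scaled to library size) untreated and 28.04 and 30.2 in G418. Both G418 values lay below both untreated values. The log2 fold change was -0.58 (SE 0.15, edgeR adjusted p = 0.0151). The call did not hold in either fit that left out a G418 library, with adjusted p = 0.439 without G418 A and 0.258 without G418 B, nor in DESeq2, with adjusted p = 0.127.

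The other 32 members did not pass the threshold, and their log2 fold changes were between -0.33 for TIMM9 and 0.34 for DNAJC19. Standard errors ran from 0.08 to 0.19 over the 33 members, with a median of 0.10. The log2 fold change was below 0 in 24 members and above 0 in 9, and its median was -0.08 beside 0.00 over all transcripts. In 15 of 33 members (45.5%) both G418 libraries lay below both untreated libraries, where 24.7% of all transcripts did, and in 5 (15.2%) both lay above, where 26.5% of all did.

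**Figure D2:**
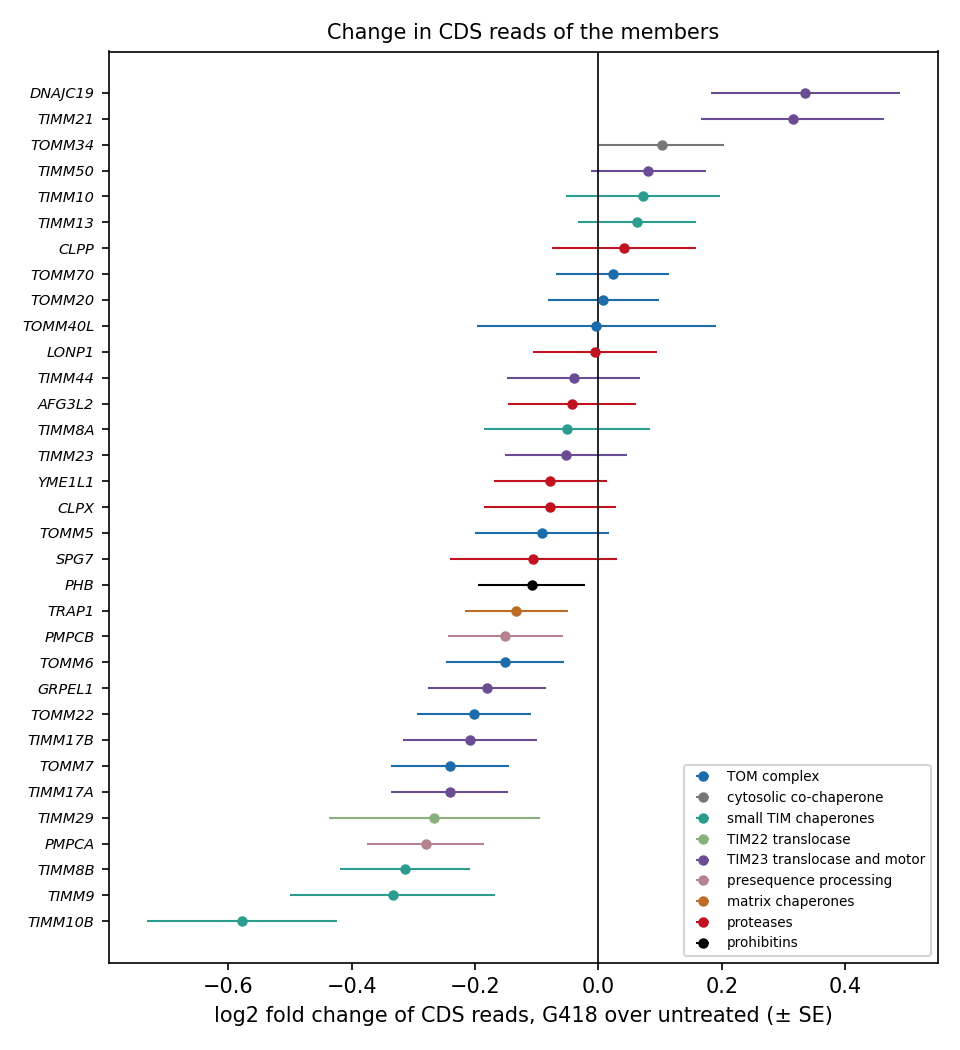
log2 fold change of CDS reads, G418 over untreated, for each member on the horizontal axis, with 1 standard error to each side from edgeR, coloured by role group and sorted by size. TIMM10B, at -0.58, is the only member past the adjusted threshold, and 24 of the 33 points lie to the left of 0.

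The TOM complex held both the most and the least densely read member. TOMM6, a small subunit of the complex, had 776 and 790 RPKM untreated and 791 and 689 in G418. TOMM20, the receptor that recognises presequences, was nearly level, at 473 and 438 RPKM untreated and 498 and 466 in G418, with a log2 fold change of 0.01 (SE 0.09). TOMM22, the central receptor, had a log2 fold change of -0.20 (SE 0.09, edgeR adjusted p = 0.184), and TOMM7 one of -0.24 (SE 0.10, adjusted p = 0.116). Without untreated B both were called lower (adjusted p = 0.0278 and 5.87e-05), and TOMM22 also without untreated A (0.0304). Of these 4, both G418 values of TOMM6, TOMM22 and TOMM7 lay below both untreated values after TMM scaling. TOMM34, a cytosolic co-chaperone and not a subunit of the complex, had 91.5 and 81.7 RPKM untreated and 101 and 95.2 in G418.

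Among the 6 small TIM chaperones, log2 fold changes ran from -0.58 for TIMM10B to 0.07 for TIMM10. TIMM13, a partner of TIMM8A, was the densest, with 486 and 451 RPKM untreated and 549 and 480 in G418. TIMM8B had 751 and 340 CDS reads untreated and 644 and 518 in G418, a log2 fold change of -0.31 (SE 0.11, edgeR adjusted p = 0.0595), and was called lower without untreated A (0.000819) and without untreated B (0.0184). TIMM29, a subunit of the TIM22 complex, had 194 and 127 CDS reads untreated and 185 and 177 in G418, and its untreated B value, 43.5 RPKM, stood above the other 3, between 29.0 and 30.8.

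The 8 members of the TIM23 translocase and its motor did not move together. TIMM17A, a subunit of the translocase channel, had 344 and 302 RPKM untreated and 311 and 266 in G418, a log2 fold change of -0.24 (SE 0.09, edgeR adjusted p = 0.108), which passed the threshold without untreated B (0.000520). DNAJC19, a J-protein of the inner membrane, had 28.1 and 27.4 CPM untreated and 35.7 and 34.5 in G418, a log2 fold change of 0.34 (SE 0.15, adjusted p = 0.181). TIMM21 had 34.0 and 32.8 CPM untreated and 44.3 and 39.1 in G418, a log2 fold change of 0.32 (SE 0.15, adjusted p = 0.197). For DNAJC19 and TIMM21 both G418 libraries lay above both untreated ones, and neither passed the threshold. Reads on TIMM23 may include some from TIMM23B, its near-identical copy, since a single alignment was kept for reads that map to several places.

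Neither subunit of the processing peptidase passed the threshold in the fit over all libraries. PMPCA, a subunit of the processing peptidase, had 266 and 299 CPM untreated and 237 and 225 in G418, a log2 fold change of -0.28 (SE 0.09, edgeR adjusted p = 0.0623). Both G418 values lay below both untreated values, and it was called lower without untreated A (adjusted p = 8.16e-05) and without untreated B (0.0117). Its partner PMPCB had 140 and 113 RPKM untreated and 127 and 114 in G418. TRAP1, the mitochondrial HSP90, had the most CDS reads of any member, 3579 and 1564 untreated and 3380 and 2814 in G418. Its density was 192 and 193 RPKM untreated and 194 and 176 in G418.

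The 6 proteases and their subunits had log2 fold changes between -0.11 for SPG7 and 0.04 for CLPP. CLPP, the proteolytic chamber of the ClpXP protease, was the densest of them, with 92.3 and 117 RPKM untreated and 113 and 110 in G418. LONP1, the main matrix protease, had 33.8 and 35.2 RPKM untreated and 37.2 and 34.7 in G418, with a log2 fold change of -0.01 (SE 0.10). PHB, a scaffold of the inner membrane that binds the AAA+ protease of the matrix side, had 325 and 306 RPKM untreated and 320 and 295 in G418. None of these genes passed the threshold in the fit over all libraries; without untreated B, CLPP was called higher and YME1L1 lower.

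For comparison, 26 of 35 other import and quality control genes were listed for all libraries. CDS reads of MTX2, a metaxin of the outer membrane, rose with a log2 fold change of 0.53 (SE 0.12, edgeR adjusted p = 0.00552), and those of TIMMDC1, an assembly factor of respiratory complex I, with one of 0.33 (SE 0.10, adjusted p = 0.0464). None of the other 24 passed the threshold, none of the 26 was lower, and the median log2 fold change was -0.08. Of 10 transcription factors and targets tied to mitochondrial stress, 8 were listed and 1 was called higher. That gene, ATF4, had 181 and 85 CDS reads untreated and 329 and 327 in G418, a log2 fold change of 0.91 (SE 0.14, adjusted p = 0.000101). ASNS, a target of ATF4, had 1906 and 723 untreated and 1640 and 1348 in G418, and did not pass the threshold.

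Readthrough rose on nearly all members that could be tested. The test needed at least 10 reads up to the first 3′TC in frame over the 4 libraries, which 25 of 33 members had. RRTS was higher in G418 for 22 of these 25 and lower for 0 (edgeR with CDS reads as offset, adjusted p under 0.05), where 82.6% of the 2827 transcripts tested were higher and 0.0707% lower, 82.7% in either direction. Without the adjustment, 23 members were higher and 0 lower at p under 0.05, where 84.3% and 0.0707% of all transcripts were, and DESeq2 called 18 higher and 0 lower. The median log2 fold change was 3.46 in members and 3.18 over all transcripts. With transcripts that had no untreated read set at their lower bound, these medians were 3.09 and 2.44. Because a gene could reach 10 reads through its G418 libraries alone, these counts describe the members with enough reads and not all 33. Over all 33, both G418 libraries exceeded both untreated ones in 26 members (78.8%), where 65.3% of transcripts did, and both lay below in 0, where 0.476% of transcripts did.

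Aggregate RRTS was the summed reads before the first 3′TC divided by the summed reads expected there. The expected reads of a transcript were its own CDS reads per counted nucleotide times the counted length of its region. For the members, aggregate RRTS was 3.27% and 2.91% in untreated A and B and 22.4% and 22.5% in G418 A and B. The mean was 3.09% ± 0.252 (SD, n = 2) untreated and 22.5% ± 0.0054 (SD, n = 2) in G418, and their ratio 7.27. The G418 sums rest on 769 and 637 reads, and an SD of 2 close values does not measure their counting error. Over those 6509 transcripts it was 1.99% and 1.81% untreated and 15.8% and 15.1% in G418, a ratio of 8.13. By this sum the members lay above all transcripts in each of the 4 libraries. The median RRTS over transcripts was 2.27% and 1.49% in members and 0% and 0% in all transcripts in untreated A and B. In G418 A and B it was 19.85% and 20.55% in members and 19.95% and 18.03% in all transcripts. By the median, then, the members did not lie above all transcripts in G418 A. No test was made of a score over the members, and they were not matched to the other transcripts by depth.

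**Figure D3:**
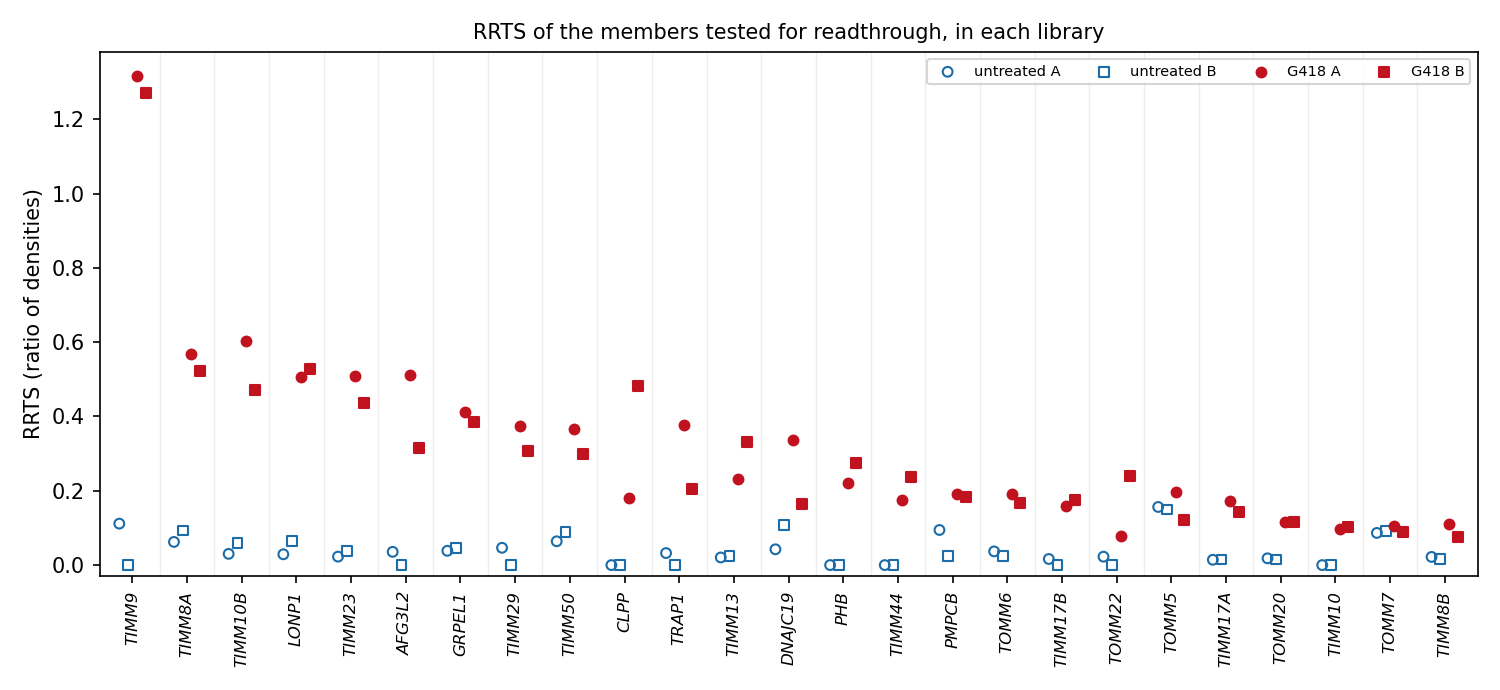
RRTS of the 25 members tested for readthrough, as a ratio of densities, with 1 point per library, open blue for untreated and filled red for G418, circles for replicate A and squares for replicate B, sorted by the G418 mean. In 23 of the 25 both G418 points lie above both untreated points; TOMM5 and TOMM7 carry the highest untreated means.

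TOMM6 had the most reads of any member in this region, 23 and 7 untreated and 114 and 79 in G418. Its RRTS was 0.0369 and 0.0253 untreated and 0.191 and 0.166 in G418, a log2 fold change of 2.43 (SE 0.26, edgeR adjusted p = 2.77e-19). TOMM20 had 3 and 1 reads untreated and 19 and 16 in G418. Its RRTS in G418, 0.117 and 0.115, was among the 4 lowest of the tested members, and the ratio of reads per CDS read was 6.70 (95% exact interval 2.39 to 25.9, counting error only). TOMM22 had 1 and 0 reads untreated and 3 and 8 in G418 and passed the threshold with an edgeR adjusted p = 0.0150. It did not pass without untreated A (adjusted p = 0.0594), without G418 B (0.461) or in DESeq2 (0.125).

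TOMM5 and TOMM7, small subunits of the TOM complex, stood apart. TOMM5 had 16 and 7 reads before the first 3′TC untreated and 20 and 10 in G418, with an RRTS of 0.156 and 0.149 untreated and 0.196 and 0.120 in G418. The untreated values lay inside the range of the G418 values, and the log2 fold change was 0.07 (SE 0.44, edgeR adjusted p = 0.885). TOMM7 had 21 and 8 reads untreated and 21 and 14 in G418, with an RRTS of 0.0866 and 0.0917 untreated and 0.106 and 0.0882 in G418, which overlap. Its log2 fold change was 0.15 (SE 0.40, adjusted p = 0.713). The ratio of reads per CDS read was 1.05 (95% exact interval 0.590 to 1.89) for TOMM5 and 1.11 (0.662 to 1.89) for TOMM7, so that each interval lay below the ratio of 7.27 of the members' aggregate.

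Both genes also shared a feature of their annotation. Of the 31 members found in GENCODE version 44, 29 end at the stop codon of the MANE Select transcript, the agreed reference transcript of a gene, and the other 2 are TOMM5 and TOMM7. The listed transcripts of TIMM8A and YME1L1 were not found and could not be checked. The listed TOMM5 transcript has a CDS of 297 nt and the MANE Select one 156 nt, whose stop codon at chr9:37588898-37588900 lies 20 nt upstream on the genome. The listed TOMM7 transcript has a CDS of 378 nt and the MANE Select one 168 nt, whose stop codon at chr7:22813170-22813172 lies 73 nt upstream. Their NTC as listed is therefore downstream of the stop codon of the reference transcript. Without them, aggregate RRTS of the members was 2.49% and 2.12% untreated and 23.3% and 23.6% in G418, a ratio of 10.2. The part of the annotation in their RRTS was not tested.

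**Figure D4:**
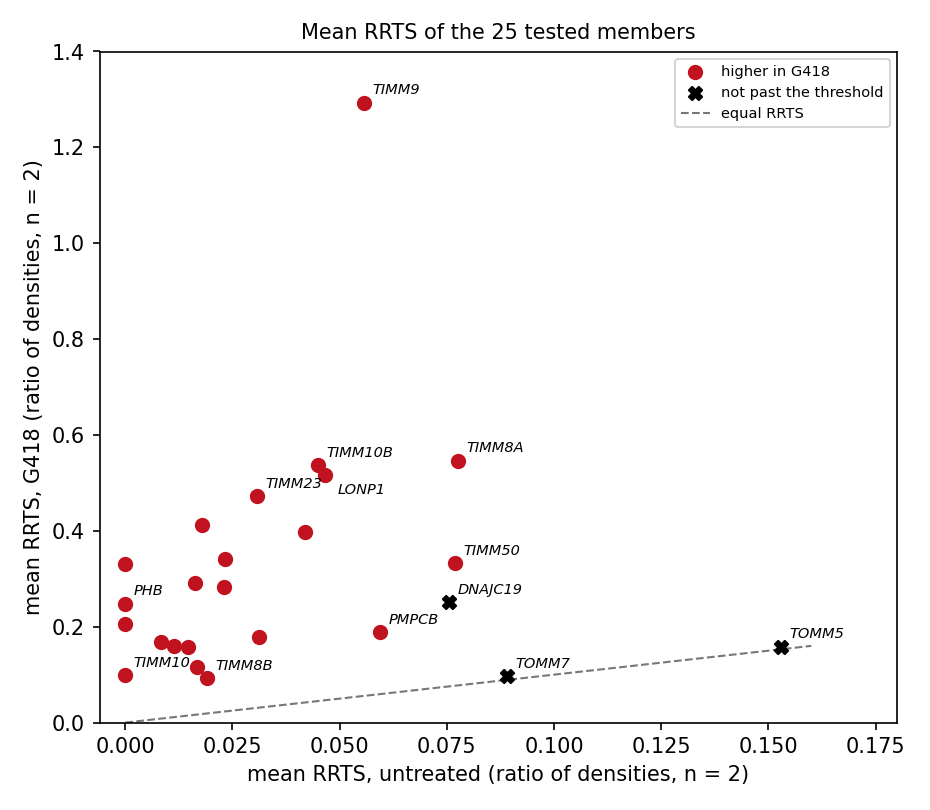
Mean RRTS over the G418 libraries against mean RRTS over the untreated libraries for the 25 tested members, both as ratios of densities with n = 2, with red circles for members past the threshold, black crosses for the others and a dashed line at equal values. TOMM5 and TOMM7 lie on the line, DNAJC19 lies above it without passing the threshold, and TIMM9 stands at the top with a G418 mean of 1.29.

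Within the TIM23 translocase and motor, 6 of 7 tested members were called higher, where 82.6% of all transcripts tested were. TIMM23, the channel-forming subunit, had 5 and 3 reads untreated and 105 and 70 in G418, an RRTS of 0.0227 and 0.0387 against 0.509 and 0.437 and a log2 fold change of 4.10 (SE 0.36, edgeR adjusted p = 5.39e-28). TIMM44, which tethers the motor to the channel, had no untreated read and 34 and 41 in G418 over a 381-nt region, the longest of the members. Its RRTS in G418 was 0.175 and 0.237, and their mean was at least 8.54-fold higher than the mean floor, the RRTS that 3 reads in each untreated library would give.

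GRPEL1, the nucleotide exchange factor of the motor, had 6 and 3 reads untreated and 59 and 44 in G418, and an RRTS of 0.0384 and 0.0452 against 0.411 and 0.384. TIMM17A had 5 and 2 reads untreated and 51 and 33 in G418, and an RRTS of 0.0143 and 0.0149 against 0.172 and 0.142. Its close relative TIMM17B had 3 and 0 reads against 27 and 26, and an RRTS of 0.160 and 0.176 in G418. In all 3 genes both G418 libraries lay well above both untreated ones, and TIMM17A and TIMM17B differed from each other by less than the spread of either in G418.

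TIMM50, a receptor for presequences, had one of the higher untreated scores, 0.0641 and 0.0900, and 0.367 and 0.299 in G418, a log2 fold change of 2.19 (SE 0.51, edgeR adjusted p = 4.93e-05). DNAJC19 had 1 and 1 reads untreated and 10 and 4 in G418, a ratio of reads per CDS read of 4.25 (95% exact interval 0.977 to 38.6) and an adjusted p of 0.0571 by edgeR, just outside the threshold, which it passed without untreated B (0.0415). TIMM21 had no read in any library over its 18 counted nt, and 3 reads would correspond to an RRTS of 0.490 and 0.657 in G418 A and B, so readthrough on it was not measurable at this depth.

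All 6 small TIM chaperones were tested and all 6 were called higher, where 82.6% of all transcripts tested were. TIMM13 had 4 and 2 reads untreated and 48 and 55 in G418, and an RRTS of 0.0205 and 0.0254 against 0.232 and 0.332, a log2 fold change of 3.62 (SE 0.45, edgeR adjusted p = 8.93e-15). TIMM9 had the highest RRTS, 1.32 and 1.27 in G418, from 8 and 9 reads over 12 counted nt, on a coding sequence with 120 and 140 reads. Its untreated libraries held 1 and 0 reads. An RRTS above 1 means a higher RPF density in this short stretch than on the CDS. The 12 counted nt run to the end of the first 3′TC, so ribosomes terminating there may be included. The ratio of reads per CDS read in TIMM9 was 16.4 (95% exact interval 2.57 to 686). Its log2 fold change was 3.74 in this stretch and 1.67 over the whole 3′UTR.

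TIMM10B, the member whose CDS reads fell, had 1 and 1 reads before its first 3′TC untreated and 14 and 10 in G418, and an RRTS of 0.604 and 0.471. At the other end TIMM10 had an RRTS of 0.0959 and 0.101 in G418 and TIMM8B one of 0.111 and 0.0743. TIMM8B passed with an edgeR adjusted p = 0.00836, but not without untreated A (0.0572), without G418 A (0.164), in DESeq2 (0.105) or over the whole 3′UTR, where its log2 fold change was 0.81 (0.137). TIMM10 had no untreated read and 8 and 8 in G418, and its mean RRTS in G418 was at least 1.72-fold higher than the mean floor. The small TIM chaperones thus held both the highest and the lowest mean RRTS in G418 of the tested members.

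TIMM29 had 3 and 0 reads untreated and 23 and 18 in G418, with an RRTS of 0.374 and 0.306 in G418. PMPCB had an uneven untreated score, 0.0945 in A from 11 reads and 0.0245 in B from 1 read, and 0.193 and 0.184 in G418. Its log2 fold change of 1.30 (SE 0.51, edgeR adjusted p = 0.0152) was the smallest of those that passed, and it did not pass without untreated B (adjusted p = 0.0546), without G418 A (0.0884), without G418 B (0.0570) or in DESeq2 (0.143). TRAP1 had 1 and 0 reads untreated and 11 and 5 in G418 over 18 counted nt, a ratio of reads per CDS read of 13.3 (95% exact interval 2.06 to 557). It passed with an edgeR adjusted p = 0.00274, but not without G418 A (0.190) or in DESeq2 (0.0713).

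Among the quality control genes, PHB had the most reads in this region in G418. It had no read before its first 3′TC in either untreated library, on 2280 and 934 CDS reads, and 55 and 58 in G418, on 2109 and 1779. Its RRTS in G418 was 0.220 and 0.276, and their mean was at least 13.0-fold higher than the mean RRTS that 3 reads per untreated library would give (edgeR adjusted p = 1.97e-25). PHB met the minimum of reads through its G418 libraries alone and is described for its many G418 reads. The p-value is therefore not independent of that choice. Its log2 fold change was 8.70 before the first 3′TC and 4.27 over the whole 3′UTR. CLPP likewise had no untreated read and 17 and 40 in G418. Its RRTS differed between the G418 libraries, 0.181 in A and 0.481 in B. Their mean was at least 6.41-fold higher than the mean floor, and the value of G418 A alone, without G418 B, at least 3.51-fold higher.

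LONP1 had 1 and 1 reads untreated and 18 and 16 in G418. Its RRTS in G418 was 0.506 and 0.528, the highest of the tested proteases, with a ratio of reads per CDS read of 12.9 (95% exact interval 3.31 to 111). AFG3L2, a protease of the inner membrane that faces the matrix, had 1 and 0 reads untreated and 13 and 7 in G418, and an RRTS of 0.511 and 0.314 in G418. It passed with an edgeR adjusted p = 0.000820, but not without G418 A (0.0801). YME1L1, the corresponding protease facing the intermembrane space, showed almost none. It had 0 and 0 reads untreated and 1 and 0 in G418 over 72 counted nt, although its CDS held 1956 and 1620 reads in G418. Its RRTS there was 0.0156 and 0, where 3 reads would give 0.0467 and 0.0563. This lies at percentile 10.7 of the transcripts with the same stop codon and following base, UGA and U, and YME1L1 had too few reads to be tested. Its listed transcript was not found in GENCODE version 44, so its stop codon could not be compared with that of the reference transcript.

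The other members with too few reads were TOMM70, TOMM34, TOMM40L, PMPCA, CLPX and SPG7, with 1 to 7 reads over both G418 libraries. Of these, TOMM34 had 1 and 0 reads untreated and 0 and 1 in G418, on 759 and 655 CDS reads in G418, and TOMM70 had 0 and 2 untreated and 3 and 1 in G418. Their counted regions of 27 and 15 nt are short, and a difference was not detectable at this depth.

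Within the class of transcripts sharing the same stop codon and following base, members ranked like the others, with a median percentile of 49.9 and 16 of 33 above the class median in G418. By stop codon alone, aggregate RRTS of the members in G418 A and B was 24.6% and 26.3% at UGA, 22.1% and 19.6% at UAG and 13.0% and 12.1% at UAA. Over all transcripts it was 22.5% and 21.5% at UGA, 15.2% and 14.7% at UAG and 9.23% and 8.60% at UAA. In both sets and both G418 libraries UGA was highest and UAA lowest. In untreated A and B the members had 8.17% and 7.996% at UAA. They had 2.94% and 2.35% at UAG and 2.40% and 2.37% at UGA, so UAA was highest there. Over all transcripts UGA stayed highest untreated, at 2.53% and 2.43%, and UAA lowest, at 1.60% and 1.33%. The UAA members include TOMM7, whose listed stop codon is not that of its reference transcript.

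Past the first in-frame 3′TC, RPFs were sparse per nucleotide, although this stretch is longer in total. The members held 170 and 56 reads there untreated and 371 and 274 in G418, beside 119 and 45 and 769 and 637 before it. Per counted nucleotide, density in this distal stretch came to 11.9% and 10.3% of that before the first 3′TC untreated and 4.01% and 3.57% in G418. The same values over all transcripts were 8.54% and 7.72% untreated and 2.77% and 2.79% in G418. In each condition, then, density per nucleotide in the members' 3′UTRs was higher before the first in-frame 3′TC, though in untreated cells more reads lay past it.

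Readthrough also rose in the comparison lists, for 14 of 15 tested import and quality control genes and for the 1 tested stress gene, SESN2. The share called higher over all transcripts tested was 82.6%. PNPT1, an RNA processing enzyme of mitochondria, was the exception, with 5 and 1 reads untreated and 2 and 2 in G418.

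Upstream of the coding sequence, 16 members had at least 20 5′UTR reads. The number of 5′UTR reads per CDS read was higher in 0 and lower in 0 of them, where 0.0274% of the 3656 transcripts tested were higher and 1.7% lower, 1.72% in either direction (edgeR, adjusted p under 0.05). Without untreated A 1 member was higher and 2 lower, and without untreated B 0 and 1. Without the adjustment, 1 member was higher and 4 lower at p under 0.05, where 2.3% and 11.5% of all transcripts were, and DESeq2 called 0 higher and 0 lower. The member higher without the adjustment, TOMM6, had 34 and 8 5′UTR reads untreated and 65 and 38 in G418, a log2 fold change of 1.07 (edgeR adjusted p = 0.166). Among those lower were CLPX, at -1.09 (adjusted p = 0.129), and AFG3L2, at -1.78 (0.201). TOMM20, with a well-read 5′UTR, had 229 and 132 such reads untreated and 177 and 160 in G418, a log2 fold change of -0.57 (edgeR adjusted p = 0.182). TOMM70, the receptor for carrier precursors, had 209 and 91 untreated and 142 and 116 in G418, a log2 fold change of -0.64 (adjusted p = 0.127). Both were called lower without untreated A (adjusted p = 0.000129 for TOMM20 and 0.00555 for TOMM70).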

How the data were processed

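Full-length RPFs of 28 to 35 nt from 4 libraries were analysed. The authors collapsed duplicate reads by molecular identifier, discarded those on noncoding RNA, and aligned the rest to hg38 with STAR, keeping a single alignment for each read and, for each gene, the transcript with the 3′-most stop codon. How strand was handled is not given in the sources used here. The deposited counts are the authors' RPFs per region without normalization. The deposited RPM values are those RPFs scaled to the mapped reads of each library, and 100% of them were whole multiples of 1 read (tolerance 0.001), from which reads were recovered. The deposited CDS count was 1 below the recovered reads in 99.9% of transcripts in G418 A and 38.0% in G418 B. In untreated A and B this held for 1.30% and 0.113%, and the other counts were equal. The deposited RPKM values are RPM per kilobase of each region, short stretches next to start and stop codons left out. RRTS and the occupancy of the whole 3′UTR are ratio values that the authors deposited. Their deposited density of 5′UTRs can be negative, was taken as a score and was left aside.

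Deposited CDS counts were tested with edgeR 4.0.16 (TMM, filterByExpr, quasi-likelihood test). Recovered reads up to the first 3′TC in frame, with 6 nt after the NTC left out, and 5′UTR reads were tested with log(CDS reads + 0.5) as offset. The readthrough test needed 10 such reads over 4 libraries and 128 mRNA reads per condition, and the 5′UTR test 20 reads over 4 libraries and 128 CDS reads per condition. Adjusted p-values (threshold 0.05) cover all transcripts in the 4 tables. DESeq2 1.42.0 was an alternative. On counts recovered from RPM, edgeR called 0 members higher and 1 lower, and 452 and 289 of all transcripts. Intervals are 95% exact (Clopper-Pearson) and, like the floor of 3 reads per library, cover counting error only. Scripts were tested on simulated data.

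Genes described in full were the members called, the 12 with the most G418 reads before the first 3′TC (with a tie), those tested and not called, and the densest of each role group. Members, lists and tests were chosen with earlier results of these data known. The study calls A and B biological replicates. The labels do not say that equal letters share a culture.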

Additional observations from a re-analysis of the deposited data

How the results depend on the processing

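The count of members with lower CDS reads, 1 in the fit reported, was 0 with DESeq2, 0 over the union of tables, and 0 to 9 when libraries were left out in turn. The count with higher CDS reads was 0 with every other setting tried before libraries were left out, and 0 to 2 over the libraries left out. Each such fit assumes that the lone library of a condition varies like the other condition. Over all transcripts, 451 higher and 273 lower became 109 and 134 with DESeq2, 265 and 141 over the union of tables, 622 and 803 without untreated A, 990 and 1092 without untreated B, 63 and 15 without G418 A and 57 and 16 without G418 B. Library totals without TMM gave 887 and 120 and moved the median log2 fold change of all transcripts from 0.00 to 0.11, and relative to that median 24 of 33 members were lower under both scalings.

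The readthrough count of 22 members was 18 of 20 tested with at least 20 reads (1536 of all transcripts), 18 with DESeq2 (1372 of all) and 18 to 22 over the libraries left out, and 1496 of all transcripts were called without G418 A. Counting the whole 3′UTR gave 1 lower member, TOMM5, whose log2 fold change was then -0.65 (adjusted p = 0.0224). Before the first 3′TC, where its log2 fold change was 0.07, it was -0.35 without G418 A and 0.34 without G418 B. In the 5′UTR test, 0 to 1 members were higher and 0 to 2 lower over the libraries left out, and the counts over all transcripts, 1 and 62, were 0 and 39 with DESeq2, 26 and 357 without untreated A, 51 and 162 without untreated B, 0 and 11 without G418 A and 1 and 19 without G418 B.

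Aggregate RRTS of the members was 1.88% untreated and 20.2% in G418 as a median over members (0% and 18.99% over all transcripts), 0.508% and 2.25% over the whole 3′UTR, and 21.5% in G418 with a higher minimum of mRNA reads. Without TOMM5 and TOMM7, a choice made after seeing the data, it was 2.31% and 23.5%. With libraries left out in turn it was 2.91% to 3.27% untreated and 22.4% to 22.5% in G418. With no minimum of mRNA reads it did not change.

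The replicate letters do not pair the samples by their labels, and deviations of libraries with the same letter correlated at r = 0.136 over 8494 genes. With the letter as a replicate block, 3 members had lower CDS reads, TIMM10B, PMPCA and TIMM8B (618 higher and 452 lower over all transcripts), 21 members had higher readthrough, TOMM22 no longer passing (adjusted p = 0.140), 0 members changed in the 5′UTR test, and 6 transcripts were higher and 84 lower there. At this depth 16 tested members rested on at most 3 reads in each untreated library, and 8 members could not be tested for readthrough.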
